A study of Mus musculus with 7 samples.

Results

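The tripartite motif (TRIM) genes encode proteins built from a RING domain, B-box zinc fingers and a coiled coil, most of which act as ubiquitin ligases. The members were the ChIP-seq regions whose annotated nearest gene carries a symbol of the form Trim followed by a number and which lie within 100 kb of that gene's transcription start site. This gave 217 regions of 57 genes, out of 93611 regions in the whole table and 18214 genes with a region within 100 kb. The rule used names and distances and no measured value, but the members were chosen with earlier results of these data known. The name states a symbol: TRIM proteins that lack a RING domain, such as Trim29 and Trim44, are included, and family members named otherwise (Pml, Mefv, Mid1 and Mid2) are not.

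NF-kappaB dimers bind DNA through Rel proteins, of which RelA and RelB are studied here. RelA works mainly in the canonical pathway that lipopolysaccharide (LPS) switches on within minutes, and RelB mainly in the non-canonical pathway, while dendritic cells hold nuclear RelB in quantity. TRIM proteins sit on several levels of the same response: some ubiquitinate sensors of viral RNA and DNA or the kinases behind them, some restrain NF-kappaB, some bind viral capsids or antibody-coated virus, and others work on chromatin, microtubules or muscle fibres. Several TRIM genes of the first kinds are themselves induced by interferon.

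All libraries came from bone marrow-derived dendritic cells (BMDCs) of C57BL/6 mice, grown from femoral marrow in GM-CSF (20 ng/ml) and IL-4 (10 ng/ml). ChIP with anti-RelB covered wild-type (WT) cells and cells without RelB (RelBko), each before stimulation (0 h) and after 1 h of LPS at 10 ng/mL, ChIP with anti-RelA covered both genotypes at 1 h of LPS, and input DNA of WT cells, with no time or treatment given, was the background. Each of the 7 groups held 1 library, so no difference has a replicate check and no p-value is given. The labels do not say how RelBko was made, nor how many animals gave the marrow. In such bulk chromatin, more cells with a bound site and more binding per cell cannot be told apart.

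Signal is given in RPKM, reads scaled to region length and library total, which allows regions of different length to be compared. Library totals ranged from 13188833 reads (input) to 35064429 (RelB, WT 0 h), and the median TRIM region held 67, 68 and 40 reads in WT RelB 0 h, WT RelB 1 h and WT RelA, 10 and 7 in RelBko RelB at 0 h and 1 h, 57 in RelBko RelA and 5 in the input. RelB ChIP without RelB put 7.41% (0 h) and 4.62% (1 h) of its reads in the regions of the table, against 38.4% and 42.4% in WT and 3.52% in the input. Ratios of single regions carry an exact 95% interval from the reads of both libraries, which covers counting error only. Of the marker genes with a region within 100 kb, the strongest one was enriched for RelB in WT at 1 h at 8 of 8 dendritic cell genes (median 87.7 RPKM), 3 of 3 T cell genes (20.3 RPKM), 2 of 3 B cell genes (7.30 RPKM), 2 of 3 neutrophil genes (2.92 RPKM) and 0 of 3 erythroid genes (2.04 RPKM). Over all genes with such a region it was enriched at 92.7%, with a median of 13.5 RPKM, and such signal is not expression.

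Of the 217 TRIM regions, 122 (56.2%) lay within 10 kb and 53 within 1 kb of the start site. Since the members were chosen by distance, the share to set beside this is that of all 82910 regions of the table within 100 kb of a start site, of which 41.5% lay within 10 kb. Promoters made up 13.8% of the TRIM regions, introns 40.6% and intergenic sequence 38.2%, and 12.4%, 45.1% and 36.2% of all regions within 100 kb. Whether the shares differ was not tested. The median TRIM gene had 3 regions, as did the median of all genes. Trim8, a ligase that promotes TAK1 and NF-kappaB signalling, had the most with 16, followed by Trim2 with 12 and Trim44 with 10, and 14 genes had 1. At the distance limit, a Trim44 region at 99281 bp was inside, with RelB at 3.08 RPKM (0 h) and 2.92 RPKM (1 h) in WT and an input of 0.63 RPKM. Just outside it lay a Trim24 region 111087 bp upstream, with 0.25 and 1.04 RPKM and an input of 0.45 RPKM.

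A region was called enriched at 2 RPKM or more and 2-fold or more over the input. By that measure 156 of the 217 TRIM regions were enriched for RelB in WT at 0 h (71.9%; 75.9% of all regions) and 171 at 1 h (78.8%; 81.7%). RelA was enriched at 178 in WT (82.0%; 82% of all regions) and at 165 in RelBko (76.0%; 75.9%). RelB ChIP in RelBko still passed at 56 regions at 0 h (25.8%; 24.1%) and at 9 at 1 h (4.15%; 6.36%). In each library the TRIM share was thus near the share of the whole table. The 207 regions enriched in at least 1 ChIP library belonged to 55 genes; Trim40 and Trim43c had none. Input signal ran from 0.164 to 3.12 RPKM with a median of 0.925 RPKM.

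The strongest TRIM region by the mean of the 6 ChIP libraries was the promoter of Trim36, a microtubule-binding ligase, at chr18:46358747-46359113 of the mouse build mm9 (build of all region coordinates below). RelB there stood at 63.4 and 68.1 RPKM (0 h, 1 h) in WT and at 9.66 and 4.89 RPKM in RelBko, RelA at 81.0 (WT) and 71.0 (RelBko) RPKM, and the input at 0.826 RPKM. It was high in the 4 libraries that can hold the antibody's target and lower in the others. Its RelB ChIP signal in RelBko still lay above that of 99.2% of all regions, both at 0 h and at 1 h. A second Trim36 region, intergenic and 49087 bp downstream of the start (chr18:46309216-46309555), held more RelB at 0 h (91.0 RPKM) than at 1 h (52.5 RPKM), with 4.54 and 2.87 RPKM in RelBko, RelA at 42.1 (WT) and 29.5 RPKM (RelBko) and input at 1.12 RPKM.

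**Figure D1:**
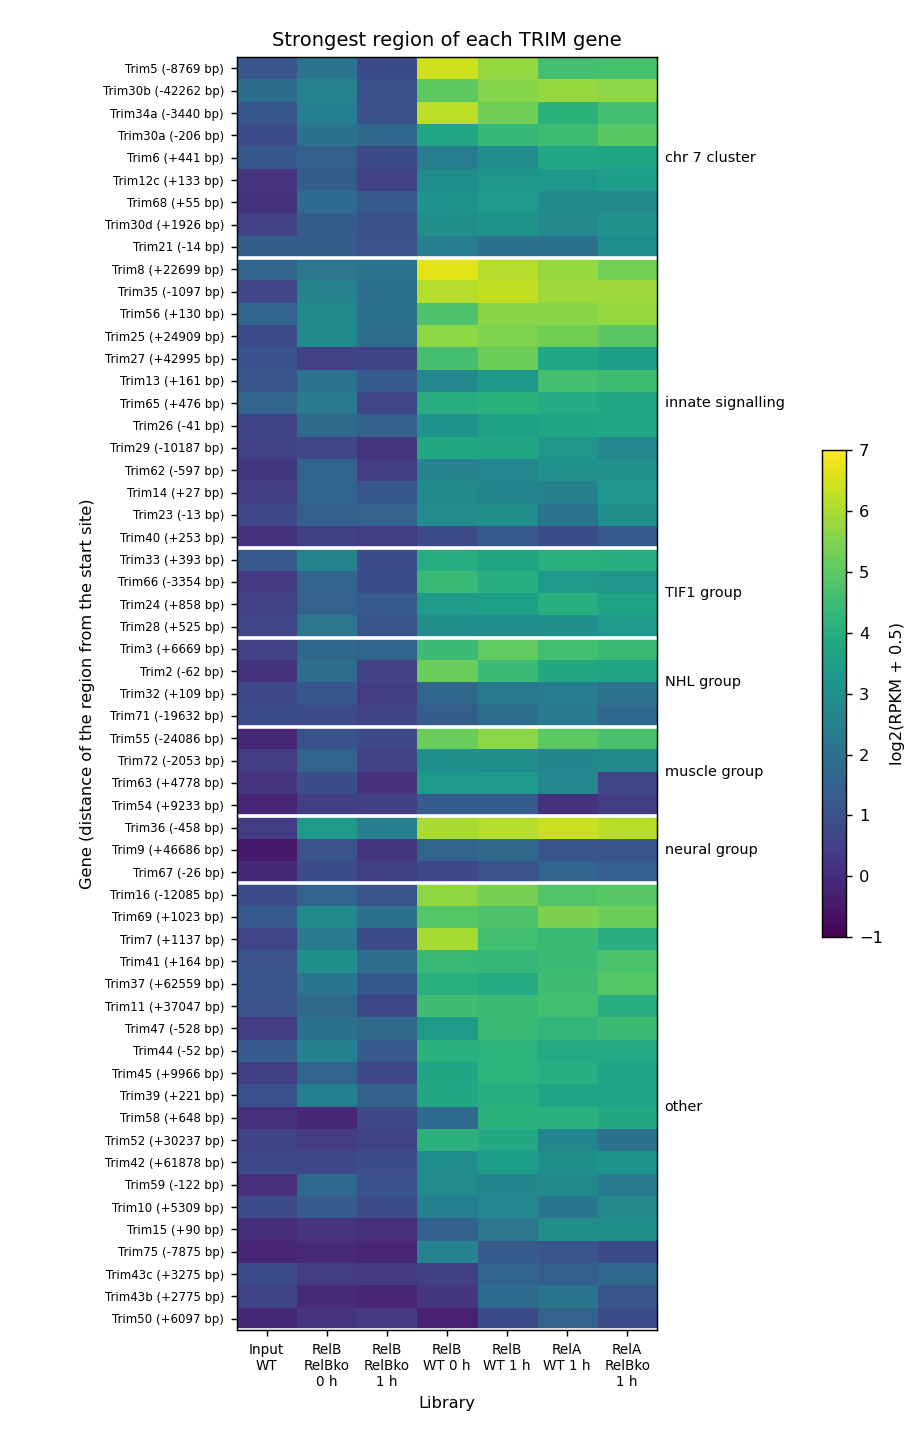
Signal of the strongest region of each of the 57 TRIM genes (rows, by group, with the distance from the start site) in each of the 7 libraries (columns), as log2(RPKM + 0.5). The input and the RelB libraries of RelBko are dark for nearly every gene. The brightest cells include WT RelB at 0 h at Trim8, Trim5, Trim34a and Trim7, and both factors at Trim36 and Trim35.

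Among the regulators of innate signalling, 13 genes with 67 regions, the highest single value of the family was a region 22699 bp downstream of the Trim8 start (chr19:46598653-46599022, intergenic). RelB there was 101 and 68.7 RPKM (0 h, 1 h) in WT, 4.02 and 3.74 RPKM in RelBko, RelA 52.9 (WT) and 38.5 (RelBko) RPKM, and the input 2.46 RPKM. Trim35, a ligase that acts on IRF7, had its strongest region 1097 bp upstream of the start (chr14:66914595-66914935, annotated as an intron). RelB was 68.2 and 75.6 RPKM at 0 h and 1 h, 5.37 and 3.31 RPKM without RelB, and RelA stood at 56.7 (WT) and 56.4 (RelBko) RPKM, over 1.11 RPKM in the input. The Trim56 intron next to its start (chr5:137591753-137592142), a gene whose product acts on STING and on TLR3 signalling, had 26.6 RPKM of RelB at 0 h and 46.8 RPKM at 1 h. Its other values were 6.45 and 3.29 RPKM in RelBko, 47.7 RPKM (RelA, WT), 53.2 RPKM (RelA, RelBko) and 2.53 RPKM (input). Trim25, which ubiquitinates the RNA sensor RIG-I, was strongest 24909 bp downstream (chr11:88885451-88885801): RelB 49.3 and 43.7 RPKM in WT, 6.52 and 3.21 RPKM in RelBko, RelA 37.9 and 30.6 RPKM, input 1.30 RPKM. None of these regions was called for RelA between genotypes, with WT over RelBko ratios of 1.37 (95% interval 1.18 to 1.60), 1.00 (95% interval 0.871 to 1.16), 0.896 (95% interval 0.777 to 1.03) and 1.24 (95% interval 1.03 to 1.49) in the order named.

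The chromosome 7 genes of the Trim5, Trim6, Trim12, Trim30 and Trim34 families, relatives of the primate capsid-binding factor TRIM5alpha, formed a cluster of 23 regions of 7 genes between 111354760 and 111656682. Some of these genes are recent copies of each other. How reads that match several copies were placed is not given in the sources used here, so values of single genes in the cluster are uncertain. The strongest region was chr7:111445185-111445594, 8769 bp upstream of Trim5, with RelB at 86.0 and 52.9 RPKM (0 h, 1 h) in WT, 3.77 and 1.25 RPKM in RelBko, RelA at 23.8 RPKM (WT) and 25.2 RPKM (RelBko), and input at 1.66 RPKM. A region 3440 bp upstream of Trim34a (chr7:111389359-111389703) had the same order of libraries: RelB 73.4 then 38.1 RPKM in WT, 4.97 then 1.49 RPKM in RelBko, RelA 17.1 RPKM (WT) and 23.4 RPKM (RelBko), input 1.76 RPKM. Around Trim30b, RelA was as high as RelB or higher. At chr7:111549247-111549597, 42262 bp upstream, RelB was 32.0 and 46.2 RPKM in WT and 5.38 and 1.46 RPKM in RelBko, while RelA was 52.5 (WT) and 48.2 (RelBko) RPKM, over an input of 3.02 RPKM. At chr7:111518312-111518667, 11329 bp upstream, the same libraries gave 27.8, 35.4, 7.71 and 2.59 RPKM for RelB, 43.6 and 53.4 RPKM for RelA and 1.49 RPKM for the input.

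To see what the promoters share, their letters were searched for binding motifs. RefSeq promoter windows (250 bases before to 50 bases after the start, assembly GRCm38.p6) were found for 43 of the 57 TRIM genes, 55 windows in all. The core of the interferon-stimulated response element, searched as GAAANNGAAA on both strands, occurred in 9 windows of 8 genes (16.4%), against 3.44% of all 32851 windows: Trim2, Trim5, Trim12c, Trim21, Trim26, Trim30a (at both of its starts), Trim30d and Trim34a. Of these 8 genes, 5 belong to the cluster. The consensus kappa B motif, the preferred NF-kappaB site, occurred in 0 of the 55 windows against 4.51% of all, and a loose form, GGGNNNNNCC, in 28 (50.9%) against 50.8%. A match is a description of the letters in the window, and the start sites of this table were not matched to those behind the mm9 distances.

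Stretches of 4 promoters of the cluster are shown for the spacing of both motifs and for how alike the copies are. Each is written in the gene's own direction and ends 1 base before the start site of its window; capitals mark matches to the interferon element core and to the loose kappa B form on either strand.
Trim30a (chr7:104465194-104465293, minus strand): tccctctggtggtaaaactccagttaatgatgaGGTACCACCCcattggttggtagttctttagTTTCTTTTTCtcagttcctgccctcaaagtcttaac
Trim30d (chr7:104507850-104507949, minus strand): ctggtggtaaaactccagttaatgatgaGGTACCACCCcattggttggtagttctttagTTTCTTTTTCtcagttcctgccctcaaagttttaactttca
Trim5 (chr7:104288107-104288206, minus strand): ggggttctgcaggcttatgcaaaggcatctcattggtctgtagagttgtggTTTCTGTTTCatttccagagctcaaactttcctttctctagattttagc
Trim12c (chr7:104353350-104353449, minus strand): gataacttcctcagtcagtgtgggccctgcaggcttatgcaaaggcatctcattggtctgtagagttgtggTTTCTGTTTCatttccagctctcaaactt

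Trim30a and Trim30d matched at 94 of 95 aligned bases (98.9%), and Trim5 and Trim12c at 75 of 80 (93.8%). Between these pairs the likeness was lower: Trim30a and Trim5 matched at 40 of 87 (46.0%), aligned without gaps. In the Trim30a and Trim30d stretches a loose kappa B match, on the other strand, starts 31 bases before the interferon element core, and in the window of the other Trim30a start the distance is 30 bases. The Trim5 and Trim12c stretches hold the interferon element and no loose kappa B match. ChIP regions annotated to starts of these genes had the values that follow, and were not matched to the stretches printed, which come from another build. At one annotated Trim30a start (chr7:111594542-111595148, 206 bp upstream) RelB was 13.2 and 19.8 RPKM (0 h, 1 h) in WT, 3.49 and 2.79 RPKM in RelBko, RelA 22.4 (WT) and 30.3 (RelBko) RPKM, and the input 1.37 RPKM. Trim30a degrades TAB2 and TAB3 downstream of Toll-like receptors. The other promoters named in this paragraph were picked after their values were seen: RelB at 1 h in WT was 3.57 RPKM at Trim30d, 8.92 RPKM at Trim12c and 5.49 RPKM at Trim5, and RelA 4.11, 9.20 and 6.52 RPKM.

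A pair of promoters of signalling regulators is shown in the same way. Trim26 is a ligase of nuclear IRF3, and its stretch runs from 170 to 91 bases before the start; that of Trim25 ends 1 base before its start.
Trim26 (chr17:36836976-36837055, plus strand): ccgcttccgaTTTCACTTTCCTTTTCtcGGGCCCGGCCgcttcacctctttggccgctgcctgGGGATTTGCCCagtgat
Trim25 (chr11:88999303-88999402, plus strand): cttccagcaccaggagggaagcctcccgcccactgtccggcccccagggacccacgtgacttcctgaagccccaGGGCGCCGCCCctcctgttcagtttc
The first run of capitals in Trim26 joins overlapping interferon element cores, and its later runs are loose kappa B matches, as is the run in Trim25, where matches on both strands overlap. The Trim25 promoter region (chr11:88860538-88860880) had RelB at 14.8 and 19.0 RPKM (0 h, 1 h) in WT, 4.84 and 3.29 RPKM in RelBko, RelA at 21.9 (WT) and 22.1 (RelBko) RPKM, and input at 1.55 RPKM. The Trim26 promoter (chr17:36973719-36974382), named after its values were seen, had RelB at 7.86 and 11.4 RPKM in WT, 2.93 and 2.32 RPKM without RelB, and RelA at 12.7 and 13.0 RPKM.

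Outside these groups, strong regions belonged to Trim16, Trim55 and Trim69. Trim16 binds galectin-marked damaged membranes, and 12085 bp upstream of its start (chr11:62621478-62621863) RelB was 50.1 and 40.6 RPKM in WT against 2.52 and 1.59 RPKM in RelBko, with RelA at 28.0 RPKM (WT) and 29.8 RPKM (RelBko) and input at 1.38 RPKM. Trim55 (MuRF2), a protein of the muscle sarcomere, had an intergenic region 24086 bp upstream (chr3:19520206-19520543) with RelB at 35.9 and 48.0 RPKM in WT, 1.52 and 1.21 RPKM in RelBko, RelA at 31.1 and 25.8 RPKM and input at 0.449 RPKM. At an intron of Trim69 (chr2:121987282-121987637), a microtubule-associated ligase, RelA stood above RelB: 42.0 (WT) and 36.6 (RelBko) RPKM, against RelB at 29.2 and 26.7 RPKM in WT, 6.43 and 3.46 RPKM without RelB and 1.92 RPKM of input.

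Among the chromatin cofactors the values were lower. Trim33, a Smad4-binding cofactor, had the highest mean over the 6 ChIP libraries (11.2 RPKM, and 9.70 for Trim66 and 8.97 for Trim24), in a 5′ UTR region (chr3:103083336-103083882) with 15.4 and 12.7 RPKM of RelB in WT, 5.44 and 1.41 RPKM in RelBko, 16.5 and 15.9 RPKM of RelA and 1.94 RPKM of input. RelB in WT at 0 h and 1 h was 20.8 and 15.6 RPKM upstream of Trim66, above Trim33, and 10.3 and 11 RPKM in an intron of Trim24, a histone reader and nuclear receptor cofactor. Of the NHL domain genes, which bind RNA or cytoskeletal partners, Trim3 was strongest in an intron 6669 bp from its start (RelB 22.1 and 32.5 RPKM in WT, RelA 23.4 RPKM) and Trim2 at its promoter. That promoter (chr3:84024681-84025041) held more RelB at 0 h (35.8 RPKM) than at 1 h (21.4 RPKM), with 3.17 and 0.994 RPKM in RelBko, RelA at 13.9 and 12.5 RPKM and input at 0.630 RPKM. The third NHL gene by strength, Trim32, reached 4.18 RPKM of RelB at 1 h. Weak genes closed the list: in the neural group Trim9 and Trim67 had RelB at 2.89 and 1.56 RPKM at their strongest regions at 1 h, against 68.1 RPKM for Trim36.

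Apart from Trim47 (below), the remaining promoters among the 10 strongest held 11.2 to 27.9 RPKM of RelB in WT at 1 h. RelB in WT at 0 h and 1 h was 23.7 and 27.9 RPKM at Trim8, 22.6 and 22.8 RPKM at Trim35, 13.8 and 17.4 RPKM at Trim37 (a centrosome and peroxisome ligase), 16.7 and 17.6 RPKM at Trim44 and 15.1 and 11.2 RPKM at Trim3. RelBko RelB at 0 h and 1 h was 5.75 and 2.58, 3.90 and 2.5, 6.47 and 3.34, 5.21 and 1.94, and 3.59 and 2.09 RPKM in the same order. RelA in WT and RelBko was 33.3 and 35.7, 21.0 and 21.4, 14.5 and 17.6, 14.5 and 14.4, and 13.5 and 12.5 RPKM. The input at these promoters was 1.12, 2.95, 1.15, 1.95 and 1.16 RPKM. In RelBko, RelB at 0 h exceeded that at 1 h at each of these promoters, and both lay below WT.

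The first comparison asked which TRIM regions lost RelB ChIP signal in RelBko, which also shows how much of the signal the antibody gave without its target. Regions enriched in at least 1 of both libraries were compared, and a difference of 2-fold or more on the log2(RPKM + 0.5) scale was called. At 1 h, 164 of 171 compared TRIM regions were higher in WT (95.9% of all compared regions were) and 0 were lower (0.128% of all), with a median log2 ratio of 2.51 against 2.47 over all regions. At 0 h, 137 of 159 were higher (background 86%) and 2 were lower (background 0.504%), with a median of 1.74 against 1.85. The TRIM shares called higher were near those of all compared regions, which were not matched to them for distance from the start. At 0 h, 40 of 47 TRIM regions within 1 kb were higher (74.5% of all compared regions at that distance). Between 1 and 10 kb it was 45 of 51 (88.1%), and beyond 10 kb 52 of 61 (88.8%). Differences by distance were not tested.

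The largest log2 ratio at 1 h was at the Trim5 upstream region described above (4.93), where the ratio of reads was 42.3 (95% interval 22.9 to 88.7). It was followed by Trim55 (4.82), a region 42995 bp downstream of Trim27 (4.59), Trim30b (4.57), Trim35 (4.32) and Trim16 (4.29). The Trim27 region (chr13:21314620-21314970), beside a gene whose product restrains IKK kinases, had RelB at 24.6 and 36.2 RPKM in WT, 0.978 and 1.02 RPKM in RelBko, RelA at 13.1 and 10.6 RPKM and input at 1.51 RPKM, so that RelB in RelBko lay under the input. At 0 h the order was Trim8 22699 bp downstream (4.48), Trim5 (4.34), Trim36 49087 bp downstream (4.18), Trim55 (4.17), Trim27 (4.09) and Trim16 (4.07).

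Both regions lower in WT at 0 h rested on few reads. Upstream of Trim9, a neuronal ligase, the region at chr12:71471155-71471324 had 1 read in WT and 10 in RelBko (0.168 and 3.36 RPKM), a ratio of 0.0499 (95% interval 0.00115 to 0.351). Its other values were 0.207 RPKM (RelB, WT 1 h), 1.21 RPKM (RelB, RelBko 1 h), 1.00 and 0.491 RPKM (RelA, WT and RelBko) and 0.446 RPKM (input). Upstream of Trim56, chr5:137623355-137623524 had 4 reads in WT and 11 in RelBko at 0 h (0.671 and 3.70 RPKM), a ratio of 0.181 (95% interval 0.0421 to 0.612), with 0.207 and 1.21 RPKM at 1 h, RelA at 0.669 and 0.246 RPKM and input at 0.892 RPKM. Neither region was enriched in any WT library.

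**Figure D2:**
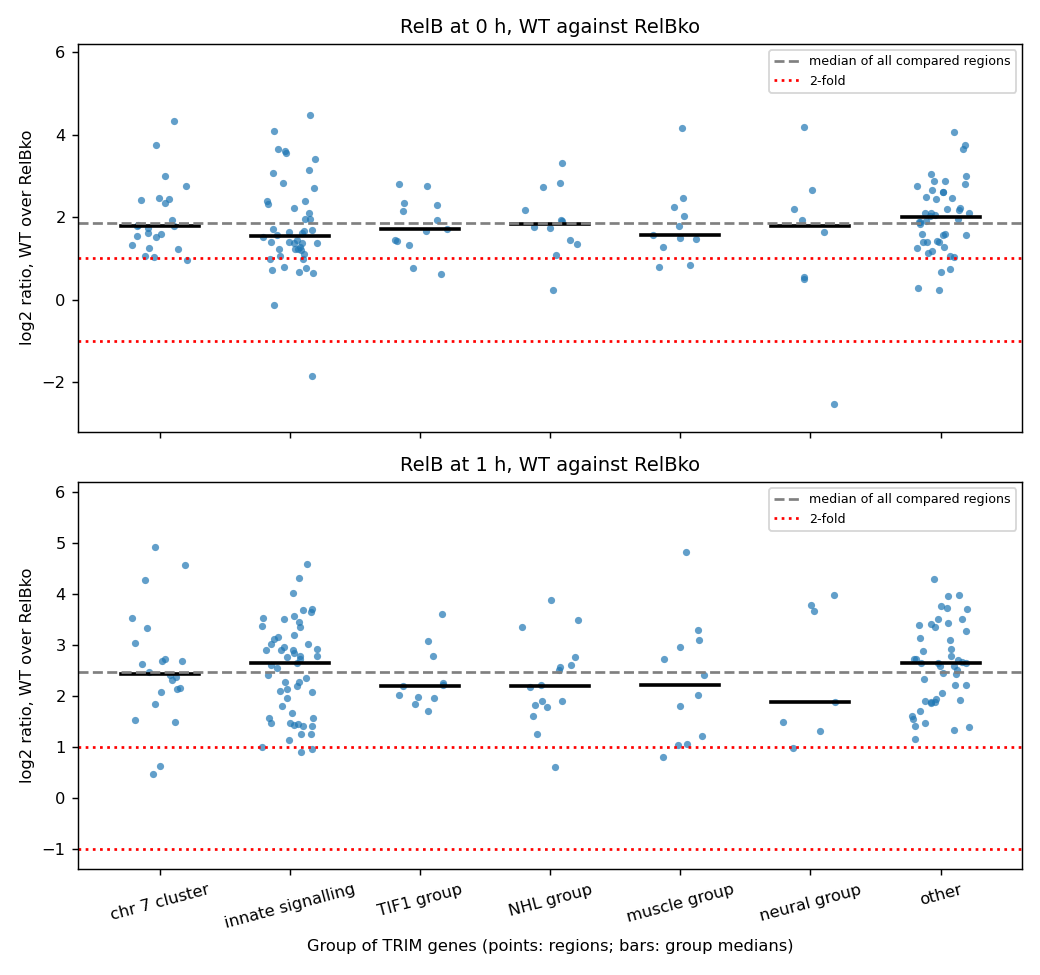
RelB log2 ratio of WT over RelBko at 0 h (top) and 1 h (bottom) for each compared TRIM region (points) by group of genes, with group medians (bars), the median of all compared regions (dashed) and the 2-fold limits (dotted). Nearly all points lie above 0, with 2 regions under the lower limit at 0 h and 0 at 1 h.

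Taken per gene, with the region of highest signal in the pair of libraries, 51 of 52 TRIM genes were higher in WT at 1 h (97.9% of all genes were) and 44 of 50 at 0 h (86% of all genes); 0 genes were lower at 1 h (0.107% of all genes) and 0 at 0 h (0.279%). By group the counts at 1 h were 8 of 8 genes for the chromosome 7 group with Trim21 and Trim68 listed in it, 12 of 12 for innate signalling, 4 of 4 for the chromatin cofactors, 4 of 4 for the NHL genes, 3 of 4 for the muscle genes, 2 of 2 for the neural group and 18 of 18 for the others. Trim54 (MuRF3), a muscle ligase, was the gene not called, at 2.01 (WT) and 0.932 (RelBko) RPKM. These calls rest on the scale of the library totals: with the median of all compared regions set to no change, 28 TRIM regions were higher (17.7% of all compared regions) and 24 lower (13.7%) at 1 h, and 21 higher (15.3%) and 19 lower (9.84%) at 0 h, a balance that this centring itself sets. Scaled instead on regions without enrichment, 133 were higher (77.4% of all) and 0 lower (0.172%) at 1 h, and 98 higher (64.3%) and 2 lower (0.729%) at 0 h.

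The second comparison asked where RelB changed over the first hour of LPS in WT cells. Of 181 compared TRIM regions, 19 were higher at 1 h (11% of all compared regions) and 5 lower (1.68%), with a median log2 ratio of 0.13 against 0.14 over all regions. The higher regions belonged to 16 genes and the lower ones to 5. By group, 9 of 55 compared regions were higher for the innate signalling regulators, 7 of 51 for the other TRIM genes, 1 of 24 for the chromosome 7 group, 1 of 16 for the NHL genes, 1 of 14 for the chromatin cofactors, 0 of 13 for the muscle and 0 of 8 for the neural group. Differences between the groups were not tested.

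Trim58, a ligase of maturing red cells, had the largest increase on the log2(RPKM + 0.5) scale (2.35). Trim43b followed at 2.24, although its ratio of reads (below) was larger. The Trim58 region, intronic and 648 bp from the start (chr11:58454421-58454810), went from 3.00 to 17.3 RPKM, a ratio of 5.78 (95% interval 4.11 to 8.30). RelB in RelBko was 0.440 and 1.18 RPKM there, RelA 16.9 (WT) and 14.0 (RelBko) RPKM, and the input 0.583 RPKM. The 1 h values of RelB and RelA in WT were alike, and RelB at 0 h stood apart from them. Upstream of Trim27 (chr13:21266130-21266495) RelB went from 3.27 to 13.1 RPKM, a ratio of 3.99 (95% interval 2.81 to 5.79), with 3.59 and 1.40 RPKM in RelBko, RelA at 18.5 and 23.2 RPKM and input at 1.45 RPKM. At 0 h the RelB signal of this region in WT and RelBko did not differ beyond counting error (WT over RelBko 0.911 (95% interval 0.535 to 1.59)). Upstream of Trim25 (chr11:88848900-88849425, annotated as an intron) RelB went from 1.73 to 6.96 RPKM, a ratio of 4.01 (95% interval 2.67 to 6.16), with 0.870 and 0.488 RPKM in RelBko, RelA at 9.08 (WT) and 15 (RelBko) RPKM and input at 1.44 RPKM.

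A pair of weak regions completed the 6 largest increases after those and Trim8 (below). Trim43b, of a group of embryonic Trim43 copies, went from 3 reads (0.272 RPKM) to 28 reads (3.14 RPKM) 921 bp upstream of its start (chr9:88988438-88988751), a ratio of 11.5 (95% interval 3.56 to 59.2). RelB in RelBko was 0.729 and 0.163 RPKM, RelA 1.09 and 1.46 RPKM and the input 0.966 RPKM. Upstream of Trim24 (chr6:37768803-37769116) RelB went from 0.908 to 4.26 RPKM, a ratio of 4.69 (95% interval 2.29 to 10.5), while RelA was 0.905 (WT) and 0.931 (RelBko) RPKM, RelB in RelBko was 0.729 and 0.490 RPKM, and the input was 0.241 RPKM. At Trim24 and Trim43b RelA stayed under the 2 RPKM of the enrichment limit, while at Trim58, Trim27 and Trim25 it passed.

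All 5 decreases are listed. On the log2(RPKM + 0.5) scale Trim7, a glycogenin-binding ligase, had the largest (-1.36), before Trim6 (-1.26) and Trim75 (-1.24). By RPKM with nothing added, Trim6 and Trim75 fell by a larger share than Trim7. The Trim7 region, intronic (chr11:48651935-48652285), went from 61.0 to 23.5 RPKM, a ratio of 0.384 (95% interval 0.330 to 0.446). RelB in RelBko was 4.4 and 1.32 RPKM there, RelA 21.2 (WT) and 15.7 (RelBko) RPKM and the input 1.08 RPKM. Upstream of Trim8 (chr19:46558671-46558999, annotated as an intron) RelB went from 26.5 to 12.0 RPKM, a ratio of 0.451 (95% interval 0.360 to 0.562). RelB in RelBko there was 1.74 and 0.468 RPKM, RelA 7.08 and 6.98 RPKM and the input 0.922 RPKM. The other three were weak. Upstream of Trim75 (chr8:67519232-67519605) RelB went from 5.34 to 1.98 RPKM, upstream of Trim6, a ligase that makes free ubiquitin chains for IKK-epsilon (chr7:111354760-111355067), from 4.26 to 1.48 RPKM, and in a Trim24 exon (chr6:37858198-37858511) from 3.72 to 1.57 RPKM. RelB in RelBko at 0 h and 1 h was 0.459 and 0.411, 0.743 and 0.333, and 0.364 and 0.817 RPKM in these regions. RelA in WT and RelBko was 1.67 and 1.23, 1.29 and 1.08, and 1.27 and 0.399 RPKM, and the input 0.405, 0.492 and 0.241 RPKM.

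Per gene, 3 of 53 TRIM genes were higher (Trim43b, Trim47 and Trim58; 5.9% of all genes) and 2 lower (Trim7 and Trim75; 1.35%). At the Trim47 promoter (chr11:115971893-115972262) RelB went from 9.71 to 20.9 RPKM, a ratio of 2.15 (95% interval 1.72 to 2.70), with 3.40 and 2.91 RPKM in RelBko, RelA at 18.6 (WT) and 22.1 (RelBko) RPKM and input at 0.820 RPKM.

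**Figure D3:**
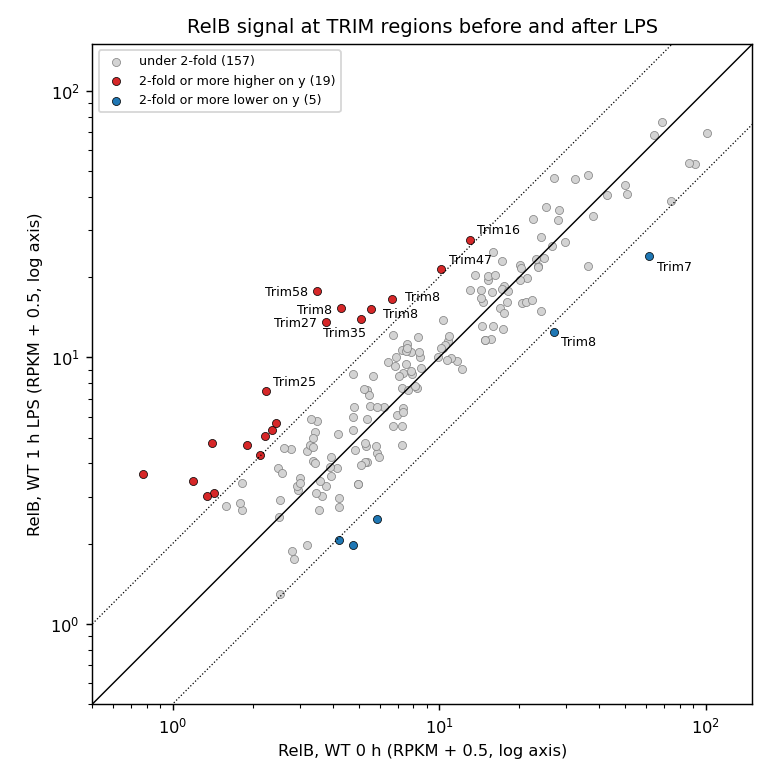
RelB signal of the 181 compared TRIM regions in WT at 0 h (x axis) and after 1 h of LPS (y axis), as RPKM + 0.5 on log axes, with equality (solid) and 2-fold limits (dotted). The 19 regions above the upper limit include 3 of Trim8, and the 5 below the lower limit include Trim7 and another region of Trim8.

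Trim8 had regions in both directions. Of its 15 compared regions 3 were higher (11% of all compared regions) and 1 lower (1.68%). A log2 ratio above 0 was found at 8 of the 15, and at 49116 of all 80966 compared regions. The largest increase, in a region annotated to a 3′ UTR 12986 bp upstream (chr19:46562968-46563336), went from 3.79 to 14.8 RPKM, a ratio of 3.90 (95% interval 2.81 to 5.50), with 1.08 and 0.973 RPKM in RelBko, RelA at 9.40 (WT) and 14.7 (RelBko) RPKM and input at 1.03 RPKM. The neighbouring intergenic region 11822 bp upstream, named after its values were seen, went from 6.13 to 16.1 RPKM, and an intron 32144 bp downstream from 5.04 to 14.6 RPKM. The decrease 17303 bp upstream thus lies beside both increases upstream of the gene, while the promoter differed less (23.7 and 27.9 RPKM, ratio 1.18 (95% interval 0.991 to 1.40)). RelA was called between WT and RelBko at 0 of the 16 Trim8 regions, where 4.94% of all compared regions were higher and 1.3% lower.

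**Figure D4:**
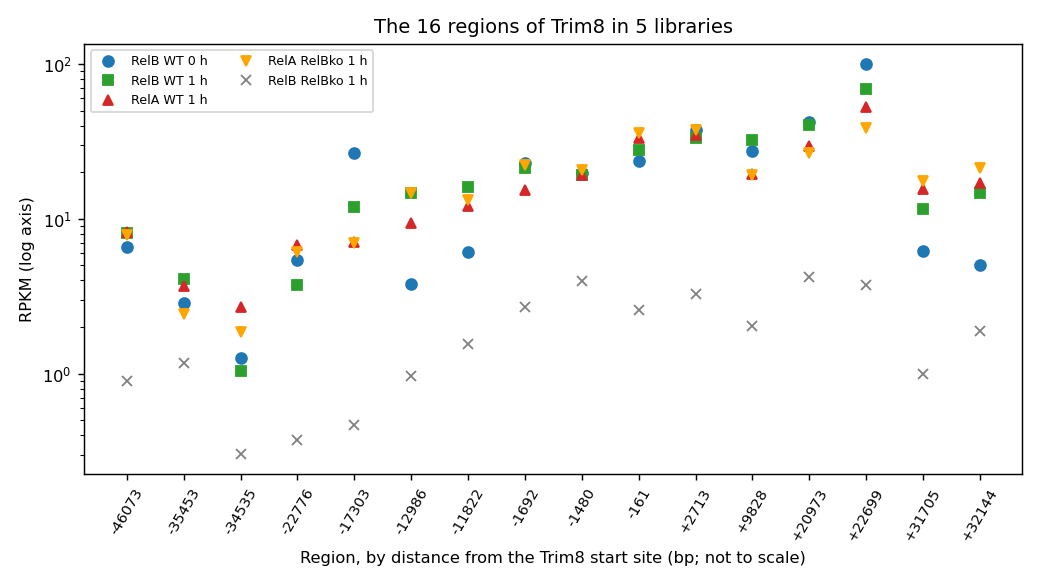
RPKM (log axis) of the 16 Trim8 regions in 5 libraries, in order of distance from the start site (x axis, not to scale). RelB in RelBko at 1 h (crosses) is the lowest value at each region, RelB at 0 h lies above 1 h at 17303 bp upstream and 22699 bp downstream and far below it at 12986 bp upstream and 32144 bp downstream, and RelA of both genotypes runs close together.

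The third comparison asked whether RelA signal after 1 h of LPS differed between WT and RelBko. Of 187 compared TRIM regions, 6 were higher in WT (4.94% of all compared regions) and 2 lower (1.3%), and the median log2 ratio was 0.08 against 0.06 over all regions. The higher ones belonged to 6 genes.

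Trim63 (MuRF1), a ligase of muscle wasting, had the largest difference, in an intron 4778 bp from its start (chr4:133875643-133875983). RelA was 6.00 (WT) and 1.10 (RelBko) RPKM (36 and 9 reads), a ratio of 5.45 (95% interval 2.57 to 12.9), RelB 9.70 and 10.3 RPKM in WT and 1.34 and 0.602 RPKM in RelBko, and the input 0.667 RPKM. RelB ChIP signal was lower in RelBko too, as it was at 95.9% of all regions compared for RelB at 1 h. The median TRIM region held 6.44 RPKM of RelA in WT. In an intron of Trim2 (chr3:84024202-84024371) RelA was 10.7 and 4.42 RPKM, a ratio of 2.42 (95% interval 1.32 to 4.58), with RelB at 4.86 and 5.38 RPKM in WT, 4.04 and 1.21 RPKM without RelB and input at 0.892 RPKM. The promoter of Trim2, close by, gave a RelA ratio of 1.11 (95% interval 0.828 to 1.48).

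The other four held at most 29 reads of RelA in either library. An intron of Trim11 (chr11:58809481-58809943) had RelA at 3.56 (WT) and 1.17 (RelBko) RPKM, a ratio of 3.04 (95% interval 1.53 to 6.37), and an intron of Trim26 (chr17:36986416-36986803) 3.08 and 1.18 RPKM, a ratio of 2.60 (95% interval 1.20 to 5.97). An intron of Trim71, a stem cell ligase with an NHL domain (chr9:114450599-114450936), had 3.36 and 1.23 RPKM, a ratio of 2.72 (95% interval 1.22 to 6.52). For Trim29, which restrains antiviral signalling in macrophages, an intron (chr9:43122352-43122689) had 3.53 and 1.36 RPKM, a ratio of 2.60 (95% interval 1.20 to 5.97). RelB in WT at 0 h and 1 h was 4.25 and 4.86 RPKM at Trim11, 1.32 and 2.18 at Trim26, 0.759 and 0.624 at Trim71 and 1.10 and 0.520 at Trim29. In RelBko it was 1.11 and 0.443, 0.590 and 0.925, 1.18 and 1.21, and 0.846 and 0.455 RPKM, over an input of 0.164, 0.391, 0.673 and 1.12 RPKM. All 8 Trim29 regions had a log2 ratio of RelA above 0, as had 45016 of all 80885 compared regions. Their median was 0.57 and their minimum 0.07, and 1 of them was called (4.94% of all were called higher). This count for Trim29 was picked after its values were seen.

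Both regions lower in WT lay upstream of signalling regulators. At chr14:66911052-66911219, 4727 bp upstream of Trim35, RelA was 8.12 (WT) and 21.1 (RelBko) RPKM (24 and 85 reads), a ratio of 0.385 (95% interval 0.234 to 0.611). RelB there was 4.58 and 13.4 RPKM in WT and 0.681 and 4.58 RPKM in RelBko, and the input 0.451 RPKM. In RelBko, RelB signal at this region was higher at 1 h than at 0 h, as it was in WT. At chr11:88854858-88855165, 5706 bp upstream of Trim25, RelA was 1.48 and 4.61 RPKM (8 and 34 reads), a ratio of 0.320 (95% interval 0.128 to 0.705), RelB 4.44 and 2.86 RPKM in WT and 2.41 and 1.17 RPKM in RelBko, and the input 0.492 RPKM. The count of higher regions moved with the pseudocount, to 11 at 0.1 RPKM and 3 at 1 RPKM, and per gene 1 of 52 was higher (Trim63; 2.21% of all genes) and 0 lower (0.575%).

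The fourth comparison set RelA against RelB in WT at 1 h. The values come from different antibodies, so that a ratio shows which regions lean to which factor relative to the others and not how many molecules were bound. Of 196 compared TRIM regions, 17 were higher for RelA (7.45% of all compared regions) and 12 for RelB (7.21%), with a median log2 ratio of −0.07 against −0.16 over all regions.

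Trim13, an ER-anchored ligase that restrains the RNA sensor MDA5, leaned to RelA at 3 of its 4 regions (7.45% of all compared regions did). This count was picked after its values were seen. The remaining region (chr14:62208439-62208752) had RelA at 1.81 RPKM and RelB at 2.69 RPKM, a ratio of 0.673 (95% interval 0.287 to 1.46). Upstream, at chr14:62207249-62207608, RelA was 6.00 RPKM and RelB 0.489 RPKM (38 and 5 reads), a ratio of 12.3 (95% interval 4.83 to 40.0), with RelB at 0.555 RPKM in WT at 0 h and 0.794 and 0.427 RPKM in RelBko, RelA at 4.06 RPKM in RelBko and input at 0.632 RPKM. RelB was thus at the level of the input in all 4 of its libraries. At chr14:62215847-62216212, 1034 bp upstream, RelA was 9.32 (WT) and 7.19 (RelBko) RPKM and RelB 1.25 and 1.63 RPKM in WT and 1.09 and 0.420 RPKM in RelBko, over 0.414 RPKM of input, a ratio of 5.70 (95% interval 3.28 to 10.4). The third region, an intron 161 bp from the start (chr14:62218329-62218692) named after its values were seen, was the strongest, with RelA at 24.5 and 22.4 RPKM and RelB at 5.95 and 9.08 RPKM in WT and 3.61 and 1.97 RPKM in RelBko, a ratio of 2.70 (95% interval 2.08 to 3.52).

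Trim7 leaned to RelA at an intron (chr11:48640356-48640810) with RelA at 12.4 (WT) and 10.3 (RelBko) RPKM, RelB at 3.70 and 2.47 RPKM in WT and 1.51 and 1.47 RPKM in RelBko and input at 1.000 RPKM, a ratio of 5.0 (95% interval 3.33 to 7.70). Its region that lost RelB over the hour, described above, had a ratio of 0.905 (95% interval 0.725 to 1.13). The rest of the 6 largest were weak: the Trim29 and Trim71 introns of the third comparison, with log2 ratios of 1.98 and 1.78, and a Trim36 region. It lay 6293 bp upstream of the Trim36 start (chr18:46364597-46364934, annotated as an intron). RelA there was 3.03 and 2.35 RPKM, RelB 0.759 and 0.729 RPKM in WT and 0.338 and 0.759 RPKM in RelBko, and the input 0.673 RPKM. An intron of Trim3 4750 bp from its start, named after its values were seen, had 19.8 RPKM of RelA and 8.62 RPKM of RelB, a ratio of 2.30 (95% interval 1.73 to 3.05).

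Toward RelB, strong regions lay near Trim27, Trim5, Trim34a and Trim52. The Trim52 region, named after its values were seen, had 14.1 RPKM of RelB and 5.91 RPKM of RelA. In the chromosome 7 group as a whole, 3 of 24 compared regions were higher for RelB (7.21% of all) and 1 for RelA (7.45%). The median log2 ratio of that group was -0.02, against -0.16 over all regions. The Trim27 region 42995 bp downstream had a RelA over RelB ratio of 0.363 (95% interval 0.281 to 0.463), the Trim5 region 8769 bp upstream 0.450 (95% interval 0.378 to 0.534) and the Trim34a region 3440 bp upstream 0.449 (95% interval 0.358 to 0.560), both latter ones outside the 6 largest and named after their values were seen. The 6 largest were otherwise weak. Upstream of Trim62, which acts on CARD9 (chr4:128548823-128549154), RelA was 0.856 RPKM against 3.81 RPKM of RelB, a ratio of 0.224 (95% interval 0.0687 to 0.574). RelB at 0 h was 1.63 RPKM, RelB in RelBko 0.689 and 0.309 RPKM, RelA in RelBko 0.251 RPKM and the input 0.228 RPKM. The Trim24 region 51852 bp upstream had a ratio of 0.213 (95% interval 0.0653 to 0.541) and the Trim43b region 921 bp upstream 0.346 (95% interval 0.117 to 0.852). Upstream of Trim75 (chr8:67520247-67520616) RelA was 0.922 (WT) and 1.47 (RelBko) RPKM, and RelB 2.93 and 3.52 RPKM in WT and 0.464 and 0.554 RPKM in RelBko, over 0.410 RPKM of input. In an intron of Trim54 (chr5:31428026-31428410) RelA was 0.591 and 0.867 RPKM and RelB 2.0 and 2.01 RPKM (0 h, 1 h) in WT, with 0.891 RPKM in RelBko at 0 h and 0.394 RPKM of input.

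Per gene, 1 of 54 TRIM genes was higher for RelA (Trim13; 6.89% of all genes) and 6 for RelB (Trim5, Trim27, Trim34a, Trim52, Trim54 and Trim75; 5.53% of all genes). By distance from the start, 2 TRIM regions were higher for RelA and 1 lower of 50 within 1 kb, where 7.91% and 1.17% of all compared regions were. Between 1 and 10 kb the counts were 9 and 5 of 64 (7.65% and 7.22% of all), and beyond 10 kb 6 and 6 of 82 (7.26% and 8.85% of all). The comparisons of RelB at 1 h with RelBko, with 0 h and with RelA share the WT RelB 1 h library, and those of RelA with RelBko and with RelB share the WT RelA library.

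**Figure D5:**
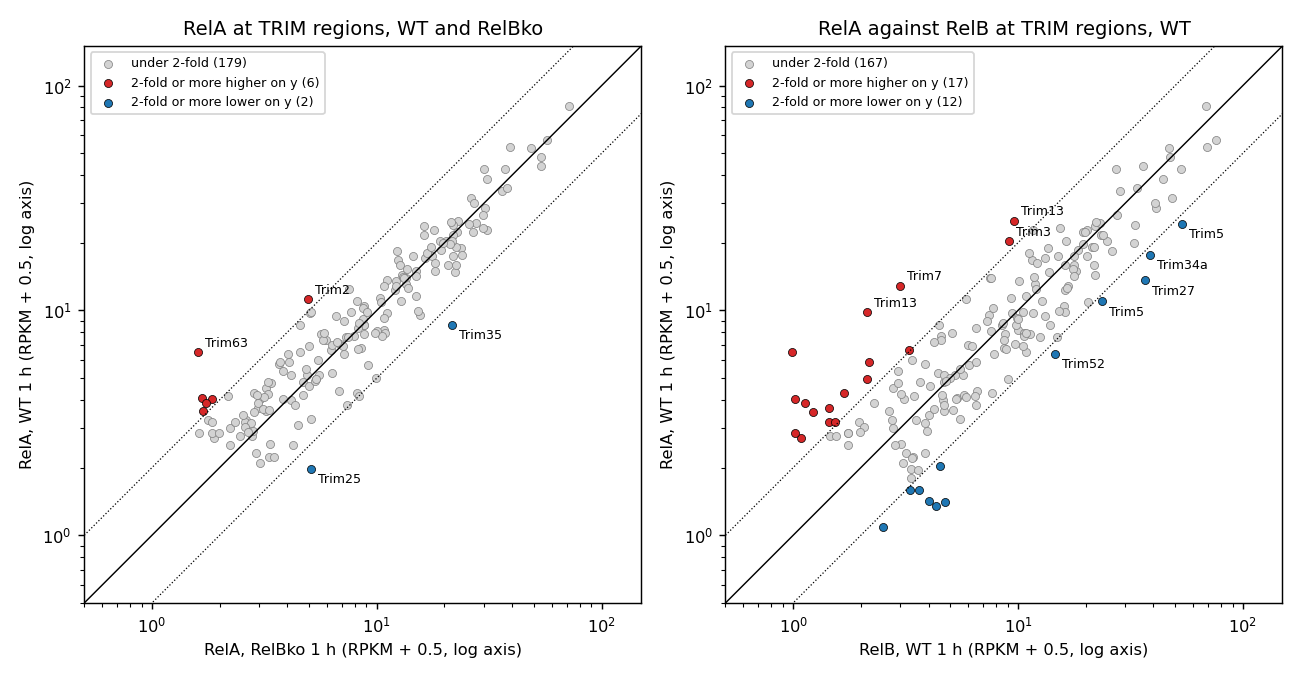
RelA in WT at 1 h (y axis) against RelA in RelBko (left, 187 regions) and against RelB in WT at 1 h (right, 196 regions), as RPKM + 0.5 on log axes with equality (solid) and 2-fold limits (dotted). On the left 6 regions lie above and 2 below the limits, and on the right 17 and 12, with Trim13 and Trim7 to the upper side and Trim5, Trim34a and Trim27 to the lower.

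The partners of TRIM ligases in antiviral sensing, a list of 21 genes for RNA and DNA sensors, their kinases and the ISG15 system, were read in the same way with 1 region per gene. At 1 h 21 of 21 were called higher for RelB in WT (97.9% of all genes were), and at 0 h 20 of 21 (86% of all genes); the exception was Ikbkg, which encodes the IKK subunit NEMO (log2 ratio 0.98). Over the hour of LPS, 2 were higher (5.9% of all genes) and 0 lower (1.35%). Tbk1, the kinase of IRF3, went from 15.5 to 68.4 RPKM of RelB 542 bp from its start (chr10:121023127-121023490), a ratio of 4.41 (95% interval 3.76 to 5.19), with 3.77 and 4.09 RPKM in RelBko, RelA at 67.8 (WT) and 79.8 (RelBko) RPKM and input at 1.25 RPKM. Isg15, a ubiquitin-like modifier, went from 20.9 to 43.0 RPKM at its promoter, a ratio of 2.06 (95% interval 1.76 to 2.42). RelA was called between genotypes at 0 of 21 (2.21% of all genes were higher and 0.575% lower). RelA was higher than RelB at 0 of 21 (6.89% of all genes) and lower at 1 (5.53%), which was Uba7, the activating enzyme of ISG15, with 48.1 against 21.0 RPKM, a ratio of RelA over RelB of 0.436 (95% interval 0.357 to 0.530). The highest means over the 6 ChIP libraries were those of Ube2l6, Tbk1 and Traf6. Ube2l6, the conjugating enzyme of ISG15, had RelB at 45.9 and 69.2 RPKM and RelA at 72.1 RPKM in WT, and Traf6, a ligase of Toll-like receptor signalling, had 62.7, 65.5 and 39.3 RPKM.

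Of the family members with other symbols, 4 of 4 were called higher for RelB in WT than in RelBko at both times, as were 97.9% (1 h) and 86% (0 h) of all genes. Mefv (pyrin), an inflammasome sensor, had more RelB than any TRIM region: 237.9 and 153.5 RPKM (0 h, 1 h) in WT against 8.97 and 3.49 RPKM in RelBko, 5376 bp upstream of its start (chr16:3723332-3723669), with RelA at 111 (WT) and 101.5 (RelBko) RPKM. Mid2, a microtubule ligase, was the one of 4 called for RelA between genotypes (2.21% of all genes were higher), with 6.98 (WT) and 2.99 (RelBko) RPKM, a ratio of 2.33 (95% interval 1.44 to 3.86), and leaned to RelB at 15.4 RPKM.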

How the data were processed

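ChIP-seq of RelB and RelA was read from 1 deposited table of RPKM values over 93611 regions, calculated by the authors for 7 libraries, per the file headers. HISAT2, HOMER, bedtools and the build mm9 are named in the submitters' processing notes. What each tool did, in which version, how regions were chosen and how multiply matching reads were placed is not stated there. The protocol text names the RelA antibody for every library, whereas the sample labels give anti-RelB for the RelB libraries, and beside LPS it names a CpG oligonucleotide reagent; the sample labels were followed.

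RPKM multiplied by region length gave whole reads for 100% of values (within 0.01 read); printed reads may be 1 too high, since no value lay under 1 read. Region starts are printed counted from 1. Ratios used RPKM after adding 0.5 RPKM to each value, so that changes of weak regions are understated. A region was enriched at 2 RPKM and 2-fold over input, compared when enriched in at least 1 of both libraries, and called at 2-fold. Ratios of reads have exact Clopper-Pearson 95% intervals for counting error only. With 1 library per group, no test was made.

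The members and gene lists were chosen with earlier results of these data known, and Trim43b and Trim43c were added to the list of other TRIM genes once the table was read. Values in every library are given for the 15 regions with the highest mean over the 6 ChIP libraries, for the promoters of the 10 genes with the strongest promoter regions, and for the 6 largest calls in each comparison and direction; 3 genes per list are named. Promoter sequences are from RefSeq, GRCm38.p6. Python 3.11.15, numpy 2.4.6, pandas 2.3.3 and scipy 1.17.1 were used.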

Additional observations from a re-analysis of the deposited data

How the results depend on the processing

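Of 90 alternative counts of called TRIM regions, from 9 settings applied to 10 counts, 53 stayed within 1.5 times of the reported count and 37 did not. No paired analysis was possible because each group holds 1 library. In the order higher, then lower, the counts outside that range were as follows. For RelB at 1 h, WT against RelBko (164 and 0), they were 109 higher with enrichment at 5 RPKM and 4-fold, 28 higher and 24 lower with the median ratio set to 1, 97 higher within 10 kb, 51 higher with 1 region per gene and 2 lower with no filter on low values. For RelB at 0 h (137 and 2), they were 21 higher and 19 lower with the median ratio set to 1, 85 higher and 0 lower within 10 kb, 44 higher and 0 lower with 1 region per gene, and 0 lower at the stricter enrichment. For RelB in WT over time (19 and 5), they were 9 higher and 3 lower at the stricter enrichment, 9 higher and 3 lower within 10 kb, and 3 higher and 2 lower with 1 region per gene.

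For RelA between genotypes (6 and 2), a pseudocount of 0.1 RPKM gave 11 higher and 6 lower, a pseudocount of 1 RPKM 3 higher, the stricter enrichment 2 higher and 1 lower, within 10 kb 3 higher, and 1 region per gene 1 higher and 0 lower. The lower count was 5 with the median ratio set to 1, 5 when scaled on regions without enrichment and 5 with 1 read taken off. For RelA against RelB (17 and 12), they were 7 higher and 5 lower at the stricter enrichment, 11 higher and 6 lower within 10 kb, 1 higher and 6 lower with 1 region per gene, and 7 lower with the median ratio set to 1. Fewer regions are compared at the stricter enrichment, within 10 kb and with 1 region per gene. Both rescalings (median ratio set to 1, and regions without enrichment) add the same amount, given next, to every log2 ratio of a comparison. For the remaining settings the cause was not tested. Setting the median ratio to 1 moved the log2 ratios by -2.47, -1.85, -0.14, -0.06 and 0.16 in the 5 comparisons in this order, and scaling on 3628 regions without enrichment by -0.74, -0.54, -0.06, -0.08 and 0.09. Depth limits the RelB libraries of RelBko (median of 10 and 7 reads per TRIM region) and the input (5), so that ratios against them are imprecise for weak regions.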

Other observations

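Another 10 TRIM regions lay beyond 100 kb of the start site and were left out by the distance limit: 6 near Trim24, 3 near Trim33 and 1 near Trim42. A single one of them was strong. It lay 164982 bp upstream of Trim24, at chr6:37655630-37656028, with RelB in WT at 43.0 RPKM before LPS and 28.7 RPKM after it, RelB in RelBko at 1.29 and 1.03 RPKM, RelA at 6.41 RPKM (WT) and 7.11 RPKM (RelBko) and input at 0.38 RPKM. No Trim24 region inside the limit reached this RelB level: the highest at 0 h was 14.4 RPKM. The other nine ran up to 4.65 RPKM of RelB at 0 h.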
